A study of Danio rerio with 2 samples.

Results

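GABAergic neurons were picked out of single-cell RNA libraries of sorted adult zebrafish brain cells by 3 genes of the GABA machinery. A barcode counted as a member when gad1b, gad2 and slc32a1 together had at least 3 UMIs (unique molecular identifiers, each standing for 1 captured transcript), with at least 2 of the 3 genes detected. Of 7322 barcodes that passed the cell filter, 81 were members, namely 22 of 3231 in the knockout library and 59 of 4091 in the control library. Members were also divided by whether they held any UMI of dlx1a, dlx2a, dlx5a or dlx6a. This gave 5 members with dlx and 17 without in the knockout library, and 28 with dlx and 31 without in the control library.

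The study asked how loss of gpr85, an orphan receptor of the SREB family, alters expression in the brain cells that use the gpr85 locus. A Gal4 knock-in at the gpr85 locus was present in all fish. The knockout fish were gpr85GAL4/GAL4, with no unmodified allele, and the control fish were gpr85Gal4/+, so the control too carried 1 knock-in allele. Adult brains were dissociated with papain, live eGFP-positive cells were sorted against a viability dye, and each genotype gave 1 droplet library of transcript 3′ ends. How many fish were pooled, and their sex and age beyond adult, are not given in the sources used here. With 1 library per genotype there was no replicate, no test was possible, and every difference below is between 2 libraries. Genotype, fish, sort and library preparation cannot be told apart.

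GABAergic neurons release the inhibitory transmitter GABA. They make it from glutamate with glutamate decarboxylases (gad1b and gad2), load it into synaptic vesicles with the transporter encoded by slc32a1, and take it back up with GABA transporters such as slc6a1a and slc6a1b. In vertebrates the Dlx homeobox genes drive the GABAergic fate in the forebrain. In mouse, Gata2, Gata3 and Tal1 act in GABAergic neurons of the midbrain and caudal diencephalon.

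The knockout library held 17646062 UMIs and the control library 19368218. A barcode passed the cell filter with 1000 UMIs or more, 500 genes or more and no more than 15% mitochondrial UMIs. Between the libraries, 8 passing barcode sequences were shared, none of them a member. Levels are given as CPM, the UMIs of a gene summed over a set of cells and scaled to 1000000 UMIs of those cells. Log2 ratios compare such CPM values with 0.5 counts added to each sum, and 95% intervals cover counting error only. The rest, to which members are compared, means all other passing barcodes of the same library.

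Members made up 0.681% (exact Clopper-Pearson interval 0.427 to 1.03) of passing barcodes in the knockout library and 1.44% (1.1 to 1.86) in the control library. These shares moved with depth. After every barcode was thinned to 1000 UMIs, the same rule found 6 members (0.186%) in the knockout library and 24 (0.587%) in the control library. Members were deeper than the rest. Their median was 10248 UMIs, with a range of 2432 to 27779, in the knockout library and 11705 UMIs, with a range of 1212 to 31005, in the control library. The rest had medians of 2840 UMIs in the knockout library and 2566 in the control library, so that members were 3.61-fold and 4.56-fold deeper. Members also had more genes, with medians of 4029.5 in the knockout library and 4229 in the control library, against 1590 and 1518 in the rest. At 1000 UMIs per barcode the medians were 771 and 783 genes in members, against 742 and 755 in the rest.

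At the threshold, 1 knockout member and 6 control members had exactly 3 UMIs of the 3 genes. Just outside it stood 12 knockout and 38 control barcodes with 2 UMIs in all, and 17 barcodes in each library with 3 or more UMIs from 1 gene alone. The typical member was well inside, with a median sum of 20.5 UMIs and a highest of 228 in the knockout library, and a median of 22 and a highest of 179 in the control library. All 3 genes were detected in 10 knockout and 43 control members.

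The 3 genes that chose the members are described first, and support nothing. Per cell, gad2 had 0 UMIs at the lowest, 8 at the median and 154 at the highest in knockout members, against 0, 12 and 143 in control members. Its summed level was 2613 CPM in knockout and 1936 CPM in control members. The other decarboxylase gene, gad1b, stood at 1311 CPM in knockout and 812 CPM in control members, and the vesicular transporter gene slc32a1 at 950 CPM in knockout and 646 CPM in control members. gad2 was seen in 19 of 22 knockout and 57 of 59 control members, gad1b in 15 and 52, and slc32a1 in 20 and 52. In the rest, the share of barcodes with a UMI was 1.87% and 3.05% for gad2, 0.717% and 1.04% for gad1b, and 0.374% and 0.843% for slc32a1, for the knockout and control libraries.

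The label was checked with 7 marker genes, of which 4 were not in the rule. slc6a1b, a plasma membrane GABA transporter, had from 0 to 192 UMIs per cell in knockout members with a median of 10.5, and from 0 to 130 in control members with a median of 12. Its level was 2794 CPM in knockout members against 21.9 CPM in the rest, and 1899 CPM in control members against 21.8 CPM in the rest. adarb2, an RNA-editing family gene that marks a class of forebrain interneurons in mouse, stood at 597 CPM in knockout members against 14.7 CPM in the rest, and at 858 CPM in control members against 23.6 CPM. It was unevenly spread, with UMIs in 9 of 22 knockout and 27 of 59 control members. dlx5a was higher in members of both libraries, at 152 CPM in knockout members against 1.00 CPM in the rest and at 267 CPM in control members against 0.154 CPM in the rest. dlx1a was seen in 22 of 59 control members, with 107 UMIs, and in no knockout member. Of the 4 marker genes outside the rule, 3 were seen in members of both libraries.

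**Figure D1:**
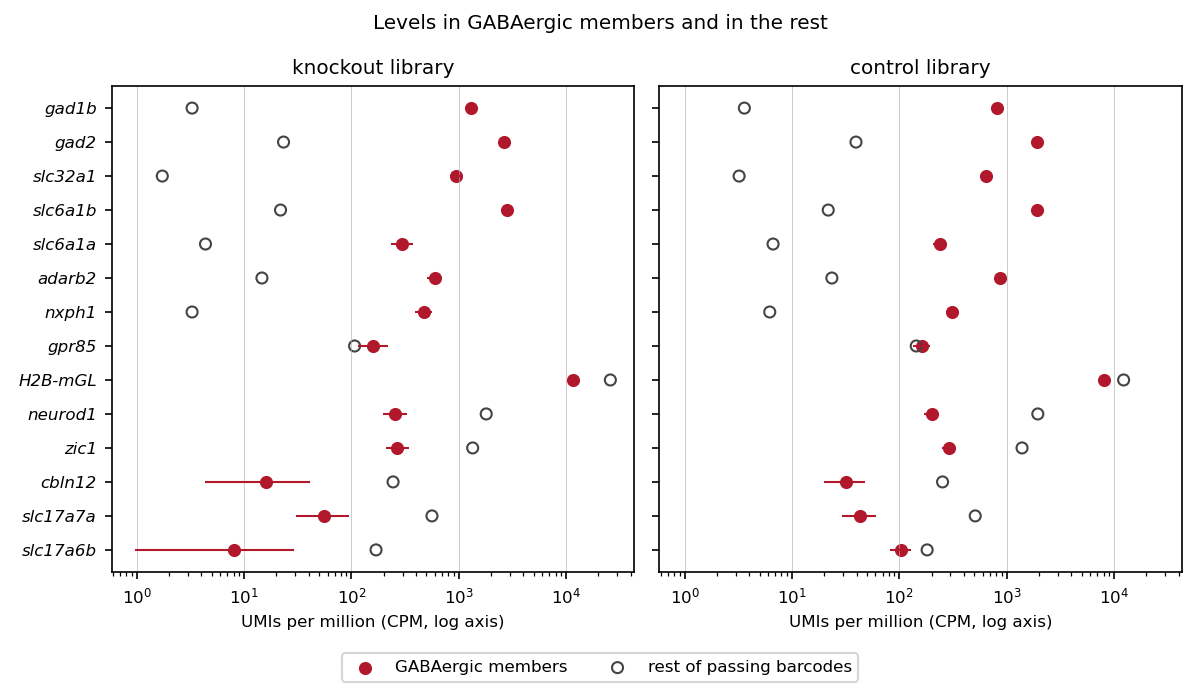
Levels of GABAergic, reporter and granule or glutamatergic genes in members (filled) and in the rest of passing barcodes (open), as CPM on a log axis, with the knockout library on the left and the control library on the right and 95% Poisson intervals for members. The GABA genes lie far to the right in members, the granule and glutamatergic genes in the lower rows lie to the left, and gpr85 is at 160 CPM in knockout members and 163 CPM in control members.

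Markers of most other cell types were low. Against the rest, 720 of 6419 genes compared were at least 2-fold higher in members of both libraries (11.2%) and 352 were at least 2-fold lower in both (5.48%). All figures of this comparison are descriptions, since members were chosen by their expression. Granule cells are the small glutamatergic neurons of the cerebellum. The 10 granule markers together stood at 1383 CPM in knockout members against 6599 CPM in the rest, and at 1078 CPM in control members against 6788 CPM. Of 9 granule markers compared, 8 were at least 2-fold lower in members of both libraries. The exception was vamp1, at log2 0.00 in the knockout and -0.87 in the control library. neurod1, a differentiation factor of granule cells that was seen in 85.8% of the rest in the knockout library and 89.5% in the control library, was at 257 CPM in knockout members against 1803 CPM in the rest, and at 201 CPM in control members against 1952 CPM. Only 1 knockout member and no control member had more granule marker CPM than the median barcode of the rest. If all granule marker UMIs in members came from free RNA, its share would be 26.5% of knockout and 20.5% of control member UMIs, which are upper limits. Scrublet, a doublet caller, marked 1 knockout and no control barcode. Its calls were not relied on, whether it worked on these cells was not tested, and no barcode was removed. The highest Scrublet scores held no knockout and 2 control members, and the number of doublets among members is unknown.

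The vesicular glutamate transporter slc17a7a, a marker of glutamatergic neurons, was at 56.1 CPM in knockout members against 563 CPM in the rest, and at 42.7 CPM in control members against 510 CPM. Any UMI of slc17a6a, slc17a6b, slc17a7a or slc17a7b was seen in 7 of 22 knockout and 17 of 59 control members, or 31.8% and 28.8%. In the rest it was seen in 78.0% and 73.6%. After thinning these shares were 9.09% and 10.2% in members and 48.4% and 46.1% in the rest. Microglial markers summed to 12.02 CPM in knockout members against 927 CPM in the rest and to 37.2 CPM in control members against 469 CPM, and 9 of the 20 were at 0 in all members, mpeg1.1, c1qa and p2ry12 among them. Radial glial markers summed to 1086 CPM in knockout members against 1725 CPM in the rest, and to 893 CPM in control members against 915 CPM, and 3 of 15 were at 0 in all members (gfap, her4.1 and fabp7b). Of this list sox2 and atp1a1b were higher in members of both libraries and cx43 was lower. Oligodendrocyte markers summed to 369 CPM in knockout members, where 1 cell held 50 UMIs of olig2, against 213 CPM in the rest, and to 169 CPM in control members against 331 CPM. Endothelial and blood markers summed to 20.04 CPM in knockout members and 15.2 CPM in control members, against 248 and 228 CPM in the rest, with 6 of 11 at 0 in all members, kdrl and pecam1 among them. Habenula markers summed to 313 CPM in knockout members against 1507 CPM in the rest, and to 441 CPM in control members against 1121 CPM. By gene, 3 of 4 glutamatergic markers compared were at least 2-fold lower in members of both libraries (slc17a7a, neurod2 and neurod6b), as were 3 of 3 microglial, 2 of 3 habenula (kiss1 and etv1) and 1 of 1 endothelial and blood markers, and none of 3 oligodendrocyte markers. No gene of the monoaminergic and cholinergic list reached the level needed for a comparison. The part of these cells in the results below was not tested.

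Purkinje cells are the GABAergic output neurons of the cerebellum, and their markers were checked apart. Of this list, aldoca and ca8 had 0 UMIs in knockout members and 1 UMI each in control members. pvalb7, a parvalbumin gene of the same list, was seen in 5 of 22 knockout and 11 of 59 control members. In the rest it was seen in 4.08% and 6.47%. After thinning it was seen in 3 knockout and 0 control members, against 1.71% and 2.90% of the rest. Of 8 Purkinje-list genes compared, 5 were at least 2-fold higher in members of both libraries, namely itpr1b, pcp4a, grid2ipb, roraa and gng13b. Over all genes compared, 11.2% were higher. pcp4a, a calmodulin-binding peptide gene, was at 128 CPM in knockout members against 21.98 CPM in the rest, and at 187 CPM in control members against 45.0 CPM.

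The GABA synthesis and transport list had 6 genes compared, and 6 were higher, 3 of which were the rule's own. Of the other 3, slc6a1b is given above. slc6a1a, the second copy of the same transporter gene, was at 297 CPM in knockout members against 4.38 CPM in the rest, and at 240 CPM in control members against 6.68 CPM. abat, the enzyme that breaks GABA down, was at 192 CPM in knockout members against 79.8 CPM in the rest, and at 169 CPM in control members against 59.2 CPM. The log2 ratio of abat was 1.28 in the knockout and 1.52 in the control library, so this gene stood apart far less than the transporters.

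The genes furthest from the rest were ranked among those with at least 50 UMIs in members, or for the lower ones 500 UMIs in the rest, so 2 of the 20 highest (nkx2.1 and drd2a) and 5 of the 10 lowest are not among the 6419 genes counted above. Beyond the GABA genes, those furthest above the rest included genes of transcription factors and secreted proteins. sp9, a zinc-finger regulator of forebrain interneurons in mouse, had a log2 ratio of 9.0 in the knockout and 7.37 in the control library. tal1, a regulator of midbrain GABAergic neurons in mouse, had ratios of 7.28 and 6.18, and gata3 had 7.35 and 5.33. cort, a somatostatin-related peptide gene, had ratios of 6.71 and 7.02, from 98 UMIs in 3 knockout members and 248 UMIs in 10 control members. nxph1, a secreted ligand of neurexins, was at 473 CPM in knockout members against 3.28 CPM in the rest, and at 313 CPM in control members against 6.22 CPM. znf385c, a zinc-finger gene, was the most widely spread of these, with UMIs in 17 of 22 knockout and 50 of 59 control members, and ratios of 6.44 and 5.57. drd2a, a dopamine receptor, had ratios of 5.34 and 5.82, from 3 knockout and 9 control members. nkx2.1, a regulator of the ventral forebrain and hypothalamus, had ratios of 5.37 and 5.91, and sox1a, a SoxB1 factor, 5.52 and 5.26. The genes si:dkey-175g6.2 (7.04 and 7.38), BX901973.1 (7.44 and 6.45) and txn (5.90 and 5.67) completed the 20 highest together with the GABA genes, adarb2, dlx5a and dlx6a. txn was seen in 3 knockout and 9 control members, and 1 cell held 36 of 41 UMIs in the knockout and 36 of 69 in the control library.

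The list counts that follow stand beside 11.2% higher and 5.48% lower over all genes compared. Of 20 forebrain regulators compared, 12 were at least 2-fold higher in members of both libraries and 1 (etv1) was lower. Of 16 midbrain and hindbrain regulators, 8 were higher and 2 were lower. The lower ones were the engrailed genes en1b and en2a, factors of the midbrain and hindbrain boundary, with en1b at 40.1 CPM in knockout members against 158 CPM in the rest and at 33.1 CPM in control members against 189 CPM. pax7b was at 208 CPM in knockout members against 2.92 CPM in the rest, and at 99.2 CPM in control members against 3.45 CPM. pbx3b, a TALE-class homeobox gene, was in 15 knockout and 47 control members, with log2 ratios of 1.62 and 2.05. Of 20 interneuron subclass genes 8 were higher and none was lower. elfn1b, a synaptic adhesion gene, was seen in 11 knockout and 33 control members with ratios of 1.86 and 1.98. Of 23 neuropeptide and secretory granule genes 7 were higher and 2 were lower, namely adcyap1b and bdnf. adcyap1b, a PACAP peptide gene, was at 24.0 CPM in knockout members against 159.9 CPM in the rest, and at 44.1 CPM in control members against 154 CPM.

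Of the 10 genes furthest below the rest, most are known from other cells. They included apoc1, cd74a, cd74b, mhc2dab and mhc2a, which are genes of microglia and antigen presentation, the haemoglobin gene hbaa1 and the habenula peptide gene kiss1, and serinc4. cd74a had 1 UMI in knockout members and 1 in control members, against 283 CPM and 172 CPM in the rest. kiss1 had 1 UMI in knockout members and 0 in control members, against 238 CPM and 65.0 CPM in the rest. Of the 10, si:ch211-5k11.8 and col7a1l stood out for similar levels in both libraries of the rest, at 164 and 163 CPM for si:ch211-5k11.8 and 104 and 105 CPM for col7a1l, with 1 and 2 UMIs and with 0 and 4 UMIs in knockout and control members.

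Many receptor genes for glutamate, the main excitatory transmitter, were higher in members. Of 30 compared, 17 were at least 2-fold higher in members of both libraries and 2 were lower, beside 11.2% and 5.48% of all genes. Of 12 GABA receptor genes, 3 were higher and 1 was lower. Whether the lists differ was not tested. grin2bb, an NMDA receptor subunit, had from 0 to 30 UMIs per cell in knockout members with a median of 2.5, and from 0 to 18 in control members with a median of 5. It stood at 401 CPM in knockout members against 17.0 CPM in the rest, and at 441 CPM in control members against 38.2 CPM. The other NMDA subunits of this kind were also higher, with log2 ratios of 3.86 and 3.20 for grin2ab, 3.07 and 3.03 for grin2aa and 4.38 and 3.93 for grin2da in the knockout and control libraries. grin2ca, the subunit of mature granule cells in mouse, was lower, at 48.1 CPM in knockout members against 514 CPM in the rest, and at 90.9 CPM in control members against 520 CPM. The obligatory subunit came as a pair of copies that differed. grin1a had ratios of 2.48 and 2.38, while grin1b had -0.44 in both libraries.

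Among AMPA receptor subunits, gria3b was at 862 CPM in knockout members against 85.6 CPM in the rest, and at 832 CPM in control members against 139 CPM. Its relatives gria1a (1.495 and 1.41) and gria1b (1.58 and 3.12) were higher as well, while gria2a was at 0.10 and -0.01 and gria4a at -0.36 and -0.14. grid1b, a delta-type receptor that organises synapses, was the most abundant gene of the list in members, at 3707 CPM in knockout members against 1322 CPM in the rest and at 2841 CPM in control members against 889 CPM. Of the metabotropic receptors grm4 (3.60 and 3.33), grm8b (3.29 and 3.34) and grm1a (3.56 and 3.84) were higher and grm1b (-2.28 and -2.99) was lower. Copies of 1 ancestral gene therefore lay on opposite sides for grm1a and grm1b, and for grm8b and grm8a, the last at -1.09 and -0.91.

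The GABA receptor subunits that were higher included gabra3 and gabrb4. gabra3, an alpha subunit of the GABA-A receptor, was at 168 CPM in knockout members against 10.5 CPM in the rest, and at 121 CPM in control members against 9.82 CPM. gabra6b, the alpha subunit of granule cells, was lower, at 52.1 CPM in knockout members against 231 CPM in the rest, and at 30.3 CPM in control members against 219 CPM. The GABA-B receptor gene gabbr2 was among the most abundant of the list and differed little, with ratios of -0.19 and -0.39. Of 6 glycine-list genes compared, 4 were higher, beside 11.2% of all genes. They were the receptor subunits glra3 and glra4a and the gephyrin genes gphna and gphnb, which anchor inhibitory receptors. slc6a5, the neuronal glycine transporter that marks glycinergic neurons, had 0 UMIs in knockout members and 2 UMIs in control members.

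Of 24 sodium, potassium and HCN channel genes compared, 7 were higher and 2 lower, beside 11.2% and 5.48% of all genes. kcnab1a, an auxiliary potassium channel subunit, led with ratios of 4.26 and 4.75, and the M-current subunits kcnq3, kcnq5a and kcnq5b were higher too, with kcnq5b at 2.5 and 2.59. kcnd2, an A-type channel abundant in the rest, was lower at -1.58 and -1.67, at 701 CPM in knockout members against 2095 CPM in the rest and at 573 CPM in control members against 1831 CPM. Of 21 vesicle release genes, 1 was higher (cplx2l, a complexin) and 3 were lower, namely snap25b and the active-zone genes rims1a and rims1b. snap25a, a fusion protein gene, had ratios of -0.35 and -0.56, against -1.55 and -1.59 for its copy snap25b.

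Of 12 genes of immature neurons compared, 6 were higher in members of both libraries and none was lower. Over all genes compared, 11.2% were higher and 5.48% lower. marcksl1a, an actin-regulating gene of growing neurites, was at 705 CPM in knockout members against 103 CPM in the rest, and at 803 CPM in control members against 66.6 CPM. The SoxC factor sox11a was higher at 2.29 and 1.15, while its copy sox11b had -1.62 and -0.62. Of 17 heat shock genes, 6 were higher and none lower. hsp70.2, an inducible chaperone, was at 657 CPM in knockout members against 151 CPM in the rest, and at 1010 CPM in control members against 96.2 CPM. Heat shock genes are also known to respond to tissue dissociation. Of 20 immediate early genes, which report recent activity and also respond to dissociation, 2 were higher (fosaa and fosb) and 1 lower (jun). These counts were near the shares over all genes.

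The dlx genes divided the members. dlx UMIs were seen in 5 of 22 knockout members, or 22.7% (exact interval 7.82 to 45.4), and in 28 of 59 control members, or 47.5% (34.3 to 60.9). In the rest the shares were 0.530% in the knockout and 0.471% in the control library. After thinning to 1000 UMIs the shares were 13.6% and 37.3% in members, against 0.125% and 0.174% in the rest. Members with dlx had a median of 8866 UMIs in the knockout and 14813 in the control library, while those without had 11216 and 7607. With dlx fell 17.9% of the UMIs of all knockout members and 57.3% of those of control members.

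The 4 genes that made the split sit as neighbouring pairs in the zebrafish genome annotation of RefSeq, dlx1a next to dlx2a and dlx5a next to dlx6a, with no protein-coding gene between them. In the knockout library the pairs were detected unequally. Among the 28 control members with dlx, dlx5a had from 0 to 30 UMIs with a median of 5.5, and dlx6a from 0 to 23 with a median of 3. dlx1a had from 0 to 16 with a median of 3, and dlx2a from 0 to 14 with a median of 2. In control members dlx5a or dlx6a was seen in 28 cells and dlx1a or dlx2a in 25. In the 5 knockout members with dlx, dlx5a had 27, 7, 2, 0 and 2 UMIs and dlx6a had 31, 5, 1, 4 and 1 UMIs. In the same 5 cells, in the same order, dlx1a had 0 UMIs throughout, and dlx2a had 2 UMIs in the third and 0 in the others. A count of 0 in knockout members with dlx allows up to 67.0 CPM of dlx1a (3 counts over the group). It also allows up to 60% of these cells with a UMI. In control members with dlx the level was 257 CPM, 3.84-fold this floor, and the upper limit of the log2 ratio was -1.62. dlx1a is 1 of the 4 genes that made the split, so these values are a description. Over all members the control level was 12.3-fold the floor and this limit was -3.29. Both also take in the smaller share of knockout members with dlx. The knockout library had only 5 such cells, and at their depth 0 UMIs does not show that dlx1a was absent.

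**Figure D2:**
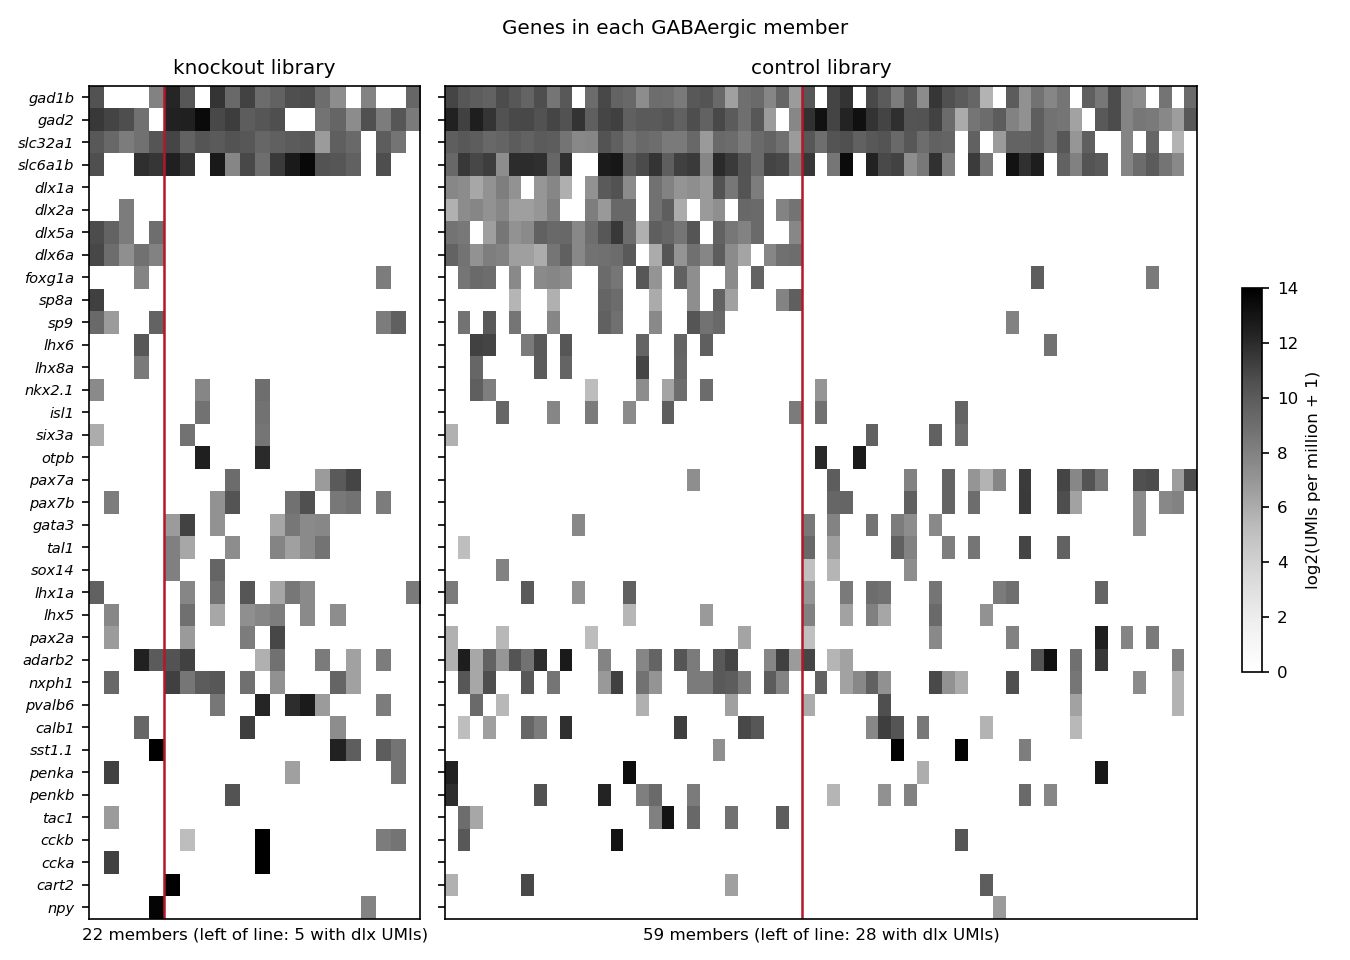
Each column is 1 of the 81 members, knockout cells left and control cells right, each row a gene, and the grey scale is log2(CPM + 1) in that cell; the red line divides members with dlx UMIs from those without. The forebrain genes foxg1a, sp8a, sp9 and lhx6 lie mostly left of the line, pax7a, pax7b, gata3 and tal1 mostly right of it, and peptide genes such as cckb, ccka, cart2 and npy are dark in 1 or a few cells.

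Between members with and without dlx, 48 of 4399 genes with at least 50 UMIs were at least 2-fold higher with dlx in both libraries (1.09%), and 107 were at least 2-fold lower (2.43%). The dlx genes themselves made the split and are no finding. Of 22 forebrain regulators compared, 5 were higher with dlx, 2 of which were dlx5a and dlx6a, and none was lower. The other 3 were sp8a, sp9 and lhx6. lhx6, a LIM-homeobox factor of interneurons from the medial ganglionic eminence in mouse, had 10 UMIs in 1 knockout member with dlx and 0 UMIs in those without. In the control library it had 150 UMIs in 8 members with dlx, against 2 UMIs in 1 member without. sp9 had 14 UMIs in 3 members with dlx and 3 UMIs in 2 without in the knockout library, and 77 UMIs in 10 with dlx and 1 UMI in 1 without in the control library. sp8a had 38 UMIs, all in 1 knockout member with dlx, and 31 UMIs in 10 control members with dlx.

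Among the other genes furthest above in members with dlx, several rested on single cells. vax1, a ventral forebrain homeobox gene, had 26 UMIs in 1 knockout member with dlx and 49 UMIs in 3 control members with dlx, and 0 UMIs in those without. FQ378016.1 had 138 of its 142 knockout UMIs in 1 cell and 93 of its 100 control UMIs in 1 cell. prdx1, a peroxiredoxin, had 54 UMIs in 1 knockout member with dlx and 3 in those without, and 125 UMIs in 10 control members with dlx, 115 of them in 1 cell, and 12 in those without. penka, a proenkephalin gene, had 21 UMIs in 1 knockout member with dlx and 2 in those without, and 322 UMIs in 2 control members with dlx and 21 in those without. chgb, a secretory granule protein gene, had 38 and 2 UMIs with and without dlx in the knockout library and 33 and 6 in the control library. Of these chgb UMIs, 1 cell held 34 in the knockout and 1 cell held 24 in the control library. The polarity gene llgl1 and the synaptic scaffold gene sipa1l2 were spread more evenly. llgl1 had few UMIs in the knockout library, 4 with dlx and 3 without. It was in 3 of 5 knockout members with dlx and 2 of 17 without, and in 17 of 28 control members with dlx and 5 of 31 without. For sipa1l2 the ratio was 1.96 in the knockout and 2.21 in the control library.

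Members without dlx carried regulators of other regions. Over all 4399 genes, 2.43% were at least 2-fold lower with dlx in both libraries and 1.09% higher. Of 10 midbrain and hindbrain regulators compared, 9 were at least 2-fold lower with dlx in both libraries and none was higher. They were gata3, tal1, zfpm2a, zfpm2b, pax2a, pax7a, pax7b, lhx5 and bhlhe22. gata3 had 0 UMIs in knockout members with dlx and 72 UMIs in 7 without, and 3 UMIs with dlx and 29 UMIs in 7 without in the control library. tal1 had 0 with dlx and 19 in 7 members without, and in the control library 1 with dlx and 53 in 8 members without. pax7a, a paired-box gene of the dorsal midbrain, had 0 UMIs with dlx and 39 UMIs in 4 members without in the knockout library, and 1 UMI with dlx and 81 UMIs in 15 members without in the control library. zfpm2b, a cofactor of Gata factors, had 0 with dlx and 27 UMIs in 5 without, and 5 with dlx and 36 UMIs in 13 without.

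otpb and otpa, homeobox genes of the hypothalamus, were also lower with dlx. otpb had 152 UMIs in 2 knockout members and 132 UMIs in 2 control members, all without dlx, so this gene marked 4 cells at high level. For otpa, 1 cell held 23 of 30 knockout UMIs and 1 cell held 25 of 26 control UMIs. uncx, a homeobox gene, had 40 UMIs in 4 knockout members, 30 of them in 1 cell, and 95 UMIs in 6 control members, all without dlx. cxcl14, a chemokine gene, had 70 UMIs in 3 knockout and 53 UMIs in 6 control members, again all without dlx. The cell with most held 39 of the knockout and 44 of the control UMIs. bhlhe22 was in 3 knockout and 6 control members, all without dlx, with 29 of 34 knockout UMIs in 1 cell. Only 5 knockout members had dlx, so 0 UMIs in them does not show that these genes were absent. ebf3a (ENSDARG00000100244), emx2, calb2a and epd completed the 12 lowest. ebf3a had 36 UMIs in 5 knockout members without dlx, and 127 UMIs in 9 control members without against 1 UMI with. epd, an ependymin gene, had 0 UMIs with dlx and 21 without in the knockout library, and 8 with dlx and 126 without in the control library. It was also high in the free RNA profile, at 2649 CPM in the knockout and 3334 CPM in the control library, and the part of free RNA in its difference was not tested.

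**Figure D3:**
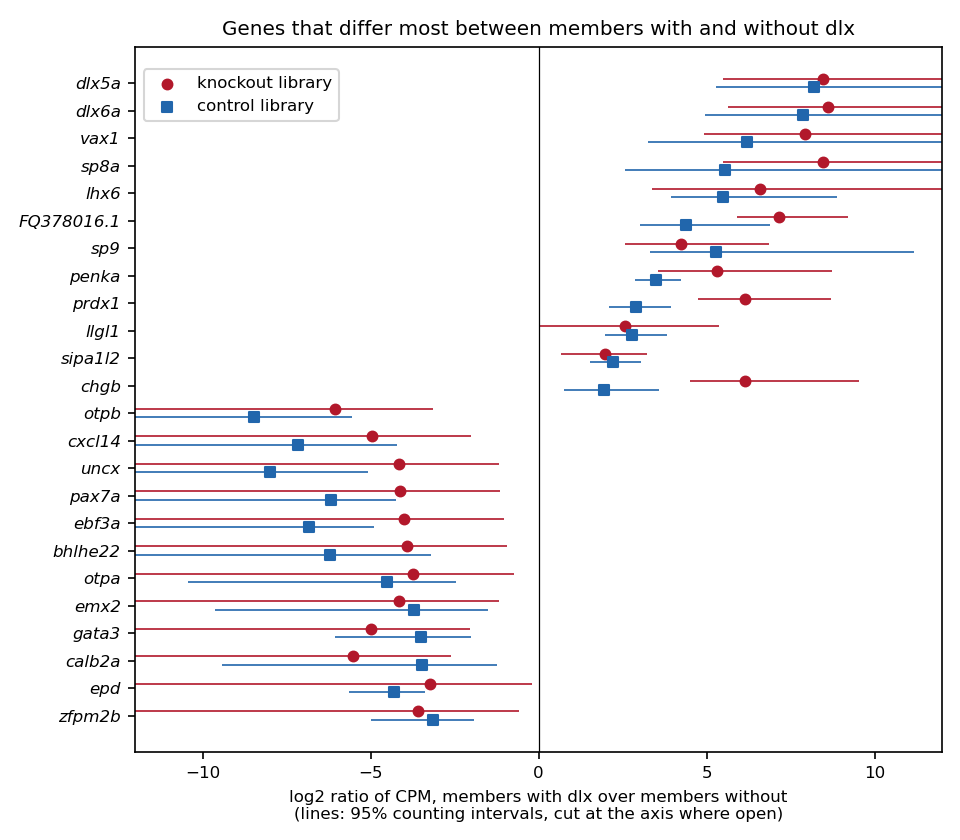
Log2 ratio of CPM in members with dlx over members without, for the 12 highest and 12 lowest genes, with the knockout library as circles, the control library as squares and 95% counting intervals as lines that are cut at the axis where open. The upper 12 genes lie right of 0 in both libraries, from sipa1l2 at 1.96 and 2.21 to dlx5a at 8.46 and 8.18, and the lower 12 lie left of it.

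Detection in single cells showed which of these regulators were seen together. Beside the counts below, dlx was seen in 22.7% of all knockout and 47.5% of all control members. Whether fewer cells were shared than the group sizes alone would give was not tested. Any UMI of gata2a, gata3, tal1, tal2 or sox14 was seen in 8 of 22 knockout members, none of which had dlx, and in 14 of 59 control members, 3 of which had dlx. In the rest the shares were 0.530% and 0.818%. pax7a or pax7b was seen in 9 knockout members, 1 with dlx, and in 18 control members, 1 with dlx, against 1.71% and 2.16% of the rest. Sorted by these genes, 4 knockout members had dlx only, 11 had the Gata, Tal and Sox14 genes or pax7 genes only, 1 had both and 6 had neither. Among control members, 24 had dlx only, 21 had the others only, 4 had both and 10 had neither. The part of depth, free RNA and doublets in these counts was not tested.

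foxg1a, a telencephalic regulator, was seen in 2 knockout members, 1 with dlx, and in 17 control members, 15 with dlx. After thinning it was seen in no knockout and 3 control members. lhx6 or lhx8a was seen in 1 knockout member and in 9 control members, 6 of which also had foxg1a. sp8a or sp9 was seen in 5 knockout members and in 14 control members, 9 of which also had foxg1a, and 2 control members had both an lhx6 or lhx8a UMI and an sp8a or sp9 UMI. nkx2.1 or nkx2.4a was seen in 4 knockout and 11 control members, 2 and 9 of them with dlx. isl1, a LIM-homeobox gene, was seen in 2 knockout members, none with dlx, and 8 control members, 6 with dlx. six3a or six3b was seen in 4 knockout and 6 control members.

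The list counts that follow stand beside 1.09% of all 4399 genes at least 2-fold higher with dlx in both libraries and 2.43% lower. Of 6 GABA synthesis and transport genes compared, none was 2-fold higher or lower with dlx in both libraries, which is near these shares. slc32a1 had a log2 ratio of -0.32 in the knockout and -0.01 in the control library, and slc6a1a had -0.43 and -0.02. gad1b had -1.44 and 0.09, and was seen in 2 of 5 knockout members with dlx and 27 of 28 control members with dlx. Of 20 interneuron subclass genes compared, 1 (adarb2) was higher with dlx, at 1.26 and 1.45, and 5 were lower (pvalb6, pvalb7, calb2a, cxcl14 and zbtb16b). In the knockout library 47 of the 51 adarb2 UMIs with dlx lay in 1 cell. adarb2 was seen there in 2 of 5 members with dlx and 7 of 17 without, and in 19 of 28 and 8 of 31 control members. pvalb7, a parvalbumin gene, had 1 UMI with dlx and 45 without in the knockout library, and 3 with dlx and 50 without in the control library. Of 29 glutamate receptor genes, 1 (gria3a) was 2-fold apart in both libraries, lower with dlx at -2.06 and -2.28. This count was near the shares over all genes.

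Knockout members were set against control members over the same 4399 genes. Of these, 400 (9.09%) were past 2-fold, 133 higher (3.02%) and 267 lower (6.07%) in the knockout library. Without the cell with most UMIs of the gene in each library, 71 were higher and 460 lower, and with free RNA subtracted 211 were higher and 517 lower. Leaving out 1 cell takes a larger part of the 22 knockout members than of the 59 control members, and its part in this shift was not tested. The median log2 ratio over all genes was -0.02 and the middle 95% of genes lay between -1.52 and 1.07. This spread includes counting error, differences between few cells and any difference between fish, sorts and preparations.

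gpr85 itself was at 160 CPM in knockout members, from 40 UMIs in 15 of 22 cells, and at 163 CPM in control members, from 118 UMIs in 38 of 59 cells. The log2 ratio was -0.01. In the rest gpr85 was at 107 CPM in the knockout and 144 CPM in the control library. The libraries read transcript 3′ ends and the place of the knock-in within the gene is not given in the sources used here, so these counts do not check the genotype label. The other SREB receptors were gpr27, at 52.1 CPM in knockout and 42.7 CPM in control members, and gpr173, with 1 UMI in knockout and 0 in control members.

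The added sequence H2B-mGL, whose name points to a histone-tagged green fluorescent protein and whose transgene is not given in the sources used here, varied widely over the members. It had from 0 to 734 UMIs with a median of 111.5 in knockout members, and from 0 to 698 with a median of 28 in control members, and 1 knockout and 9 control members had none. The levels were 11591 CPM in knockout and 8094 CPM in control members, against 25842 and 12299 CPM in the rest, so members were lower than the rest in both libraries. The ratio between knockout and control members, log2 0.52, reversed in sign to -0.21 when all 3 rule genes were required. mCherry-NTR, another added sequence, was seen in 4 knockout and 12 control members, at 461 and 281 CPM, against 44.4 and 102 CPM in the rest. Of its UMIs, 0 of 115 in knockout members and 27 of 204 in control members lay in cells with dlx. Of the 115, 77 lay in 1 cell, and of the 204, 99 lay in 1 cell, both cells without dlx.

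The summed levels of all 6 GABA synthesis and transport genes had positive ratios, and none passed 2-fold. The log2 ratios were 0.69 for gad1b, 0.43 for gad2, 0.56 for slc32a1, 0.56 for slc6a1b, 0.31 for slc6a1a and 0.19 for abat. The interval of slc6a1a, -0.11 to 0.71, held 0. Median CPM per cell was lower in knockout than control members for gad1b (545 against 592) and slc6a1a (111 against 147). It was higher for gad2, slc32a1 and slc6a1b. Within members without dlx, 6 of the 6 ratios were again positive, from 0.37 for slc6a1a to 0.92 for gad1b. Within members with dlx, of which the knockout library had 5, gad1b was at -0.61, slc6a1b at -0.41, slc6a1a at -0.03 and gad2 at -0.02, while slc32a1 was at 0.30 and abat at 0.16. Under the rule without a minimum of genes, gad2 was at -0.09 and slc6a1b at -0.03. The 3 rule genes are a description here as well.

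Regional regulators were compared between the libraries as lists, beside 3.02% of all 4399 genes higher and 6.07% lower in knockout members. Of 22 forebrain regulators compared, 3 were higher in knockout members (sp8a, pbx3a and prox1a) and 8 were lower. All 38 knockout UMIs of sp8a lay in 1 cell, against 31 UMIs in 10 control members. The lower ones were dlx1a, dlx2a, foxg1a, etv1, gsx1, lhx6, lhx8a and satb1b. foxg1a was at 12.02 CPM in knockout members, from 3 UMIs in 2 cells, and at 136 CPM in control members, from 99 UMIs in 17 cells. lhx8a was at 12.02 CPM from 1 knockout cell and at 114 CPM from 5 control cells. Of 10 midbrain and hindbrain regulators, 7 were higher in knockout members and none was lower. Some of the 7 rested largely on 1 cell. For bhlhe22, 29 of 34 knockout UMIs lay in 1 cell, and 1 knockout member held 25 UMIs of pax2a. gata3 was at 289 CPM in knockout members, from 72 UMIs in 7 cells of which 1 held 58, and at 44.1 CPM in control members, from 32 UMIs in 8 cells. lhx5, a LIM-homeobox gene, was at 116 CPM in knockout members and 30.3 CPM in control members, each from 8 cells. Within members without dlx, 3 of these 10 were higher and none was lower, namely gata3, pax2a and lhx5. Within the same cells 2 of the 12 forebrain regulators with a ratio were higher and 2 were lower, with a median log2 ratio of 0.33. Within members with dlx, 4 of 21 forebrain regulators were higher and 12 were lower in the 5 knockout cells, with a median of -1.36, and these 21 include the genes that made the split. Of the midbrain and hindbrain regulators 3 had a ratio there, of which 1 (lhx1a) was higher. The shares of all genes past 2-fold within members with dlx and within members without are not given here. The part of the dlx share in the differences over all members was not tested. Over all members the list medians were 1.19 for midbrain and hindbrain and -0.70 for forebrain regulators, against -0.25 and 0.08 in the rest, and whether members and the rest differ in this was not tested.

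**Figure D4:**
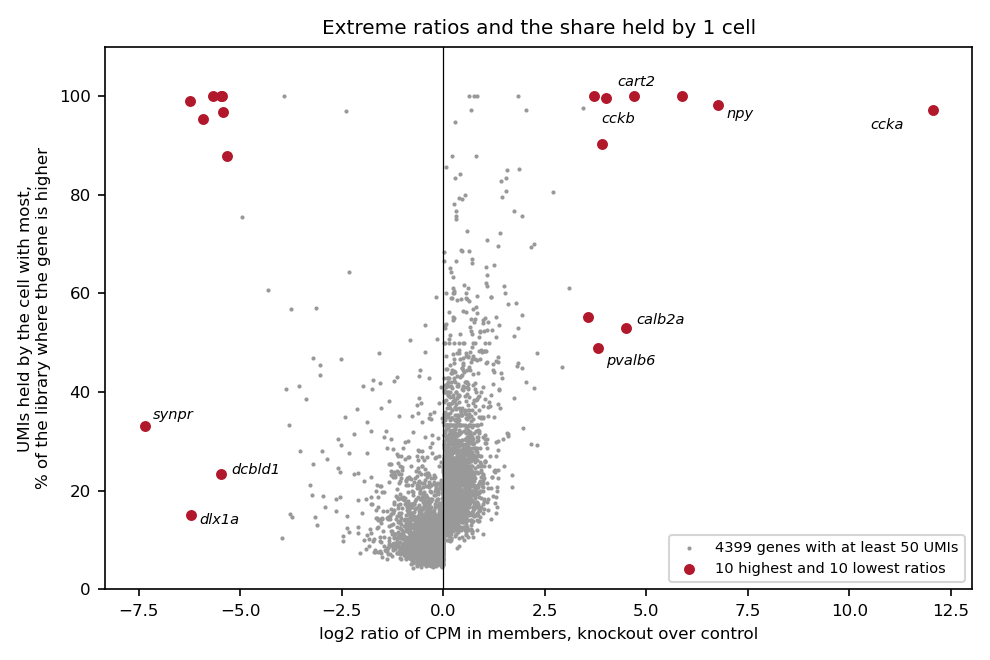
Each point is 1 of 4399 genes, placed by the log2 ratio of CPM in knockout over control members and by the share of its UMIs held by the cell with most, in the library where the gene is higher; the 10 highest and 10 lowest ratios are red. Of the 10 highest, 9 had at least 50% of their UMIs in 1 cell, and of the 10 lowest 7 had, while synpr, dlx1a and dcbld1 lie low, with their control UMIs spread over 11, 22 and 15 cells.

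The 10 genes highest in knockout over control members were mostly those of 1 cell. ccka, a cholecystokinin gene, had 729 UMIs in 2 knockout members, 708 of them in 1, and 0 UMIs in 59 control members. The knockout level was 2922 CPM, 707-fold the control floor of 4.13 CPM, and the lower limit of the log2 ratio was 9.16. With the cell holding most ccka UMIs left out, the ratio was 7.07 in place of 12.05. cckb, the other cholecystokinin gene, had 802 of its 805 knockout UMIs in 1 cell, against 146 UMIs in 3 control members. cart2, a CART peptide gene, had 528 UMIs in 1 knockout member and 59 UMIs in 4 control members. Without the cell that held most UMIs in each library, no knockout UMI of cart2 was left, so the sign of its ratio was fixed beforehand. The log2 ratio was then -3.81 in place of 4.69 for cart2 and -2.25 in place of 3.999 for cckb. uts1, a urotensin gene, had 47 UMIs in 1 knockout member and 10 UMIs in 4 control members. With that cell left out no knockout UMI remained, so the sign of its ratio, -1.85 in place of 3.72, was fixed beforehand too. npy, neuropeptide Y, had 55 of 56 knockout UMIs in 1 cell and 1 UMI in control members. olig2 had 50 UMIs in 1 knockout member and 2 UMIs in 1 control member.

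Of the remaining 4 genes, 3 were in 6 or more knockout members. pvalb6, a parvalbumin gene, had 174 UMIs in 6 knockout members, at 697 CPM, and 36 UMIs in 8 control members, at 49.6 CPM. The cell with most held 85 of the knockout UMIs and 20 of the control UMIs. That knockout cell was the one with the 708 ccka, 802 cckb and 47 uts1 UMIs. calb2a, a calretinin gene, had 104 UMIs in 2 knockout and 13 UMIs in 6 control members. pde6gb, a phosphodiesterase subunit gene, had 58 UMIs in 6 knockout members, 32 of them in 1 cell, and 14 UMIs in 9 control members. zbtb46, a zinc-finger gene, was seen in 11 knockout and 25 control members, at 1002 and 66.1 CPM, with 226 of 250 knockout UMIs in 1 cell, and without the cell with most its ratio was 0.86 in place of 3.91.

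Among the 10 genes lowest in knockout members, 3 were seen in many control cells. synpr, the synaptic vesicle protein synaptoporin, had 0 UMIs in 22 knockout members and 238 UMIs in 11 control members, 236 of them in cells with dlx. Its control level was 27.3-fold the floor for a count of 0 in knockout members, and 8.47-fold within members with dlx. The upper limits of the log2 ratio were -4.46 and -2.77, for counting error only. Among the 28 control members with dlx, 9 had a UMI of synpr. In the rest synpr was at 19.4 CPM in the knockout and 30.2 CPM in the control library. dcbld1, a membrane protein gene, had 0 UMIs in knockout members and 64 UMIs in 15 control members, against 14.4 and 16.9 CPM in the rest. Its control level was 7.33-fold the floor, and the upper limit of its log2 ratio was -2.53. dlx1a is given above. A count of 0 in 22 cells allows a share of up to 13.6% of cells with a UMI, and in 5 cells up to 60%.

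The other 7 rested on 1 to 3 control cells. pkd1l2a had 108 of 109 control UMIs in 1 cell, prdm12b 74 of 74, dkk1b, a Wnt inhibitor gene, 64 of 64, hoxb5a, a hindbrain Hox gene, 60 of 62, gsx1, a forebrain homeobox gene, 51 of 58, matn3b, a matrilin gene, 190 of 190, and ENSDARG00000105976 83 of 87. Knockout members held 1 UMI of matn3b and 0 of the others. Log2 ratios against a count of 0 depend on the 0.5 counts added and are no bound.

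Activity and stress genes had ratios nearer 0 in members than in the rest at the median. Over 17 immediate early genes the median log2 ratio was -0.11 in members and 0.73 in the rest. Of all 4399 genes, 3.02% were past 2-fold higher in knockout members and 6.07% lower. Of the 17 immediate early genes, 2 were higher (egr2a and nr4a1) and 1 lower (jun). Over 14 heat shock genes the median was 0.03 in members and 0.55 in the rest, and hsp70l alone was past 2-fold, at 697 CPM in knockout and 340 CPM in control members. Of 29 glutamate receptor genes, 2 were higher (gria3a and grm3) and 1 lower (grm2b), and of 19 vesicle release genes none passed 2-fold. Of 12 GABA receptor genes 2 were lower (gabrb1 and gabrz), of 20 channel genes 2 were higher (kcnj3a and hcn2b) and 2 lower (kcnab1a among them), and of 12 immature neuron genes 1 was lower (sox11b). Of 19 neuropeptide and granule genes 6 were higher and 5 lower, and of 20 interneuron subclass genes 5 were higher and 2 lower (nos1 and synpr). Whether members and the rest differ in this was not tested.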

How the data were processed

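Adult zebrafish brain cells were profiled in 2 droplet libraries, grouped by the genotype in the labels. The deposited values are counts of UMIs per gene and barcode, unfiltered, per the file headers. Per the submitters' processing notes Cell Ranger 7.1.0, Seurat and GRCz11 were used. The files listed 25435 features.

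Cell filter, member rule and dlx split are as stated with the results. UMIs were summed over cells within each library and scaled to CPM. Log2 ratios had 0.5 counts added and were left out where the higher side had 3 counts or fewer. Members and rest were compared over genes with a mean of at least 30 CPM over the 4 sums, a limit set after the data were seen, and the other comparisons over genes with at least 50 UMIs in members. Intervals are 95% (Clopper-Pearson for shares, Poisson for sums, conditional binomial for ratios). PCR and library effects are not in them. Thinning drew 1000 UMIs per barcode once. The free RNA profile was the sum of all barcodes below 100 UMIs. Doublets were scored with Scrublet in scanpy 1.11.5 and none was removed. Scripts used Python 3.11.15 and scipy 1.17.1, and the ratios were tested on simulated sums with known changes. Those sums were drawn with counting error only, so that test does not cover differences between cells.

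Named genes were the fixed markers; the 20 highest and 10 lowest members over rest (ranked by the ratio nearer 0, same sign in both libraries, with no CPM minimum but at least 50 UMIs in members and seen in at least 10% of them when higher, and at least 500 UMIs in the rest when lower); the 12 highest and 12 lowest with dlx over without; the 10 highest and 10 lowest knockout over control; and, of 23 gene lists, those seen in members with examples by UMIs. Of 487 list symbols, 460 were in the files. Members and lists were chosen with earlier results of these data known. Alternatives were other filters, member rules, doublet removal, thinning, free RNA subtraction, scaling, gene minimums and leaving out the cell with most UMIs. Some list genes are counted but not reported here by name.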

Additional observations from a re-analysis of the deposited data

Results flagged for a closer look

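From 256 single genes set side by side, 6 are given here. Each was past 2-fold between knockout and control members in 1 direction and past 2-fold in the rest in the other. They are not all such genes. Others include npy (log2 6.78 in members, -1.78 in the rest), olig2 (5.88 and -2.60), dkk1b (-5.47 and 3.45) and gsx1 (-5.33 and 4.89). In members, these others had few UMIs or none in the library where they were lower. These differences were not tested, since each library is 1 sample. pvalb7 had a log2 ratio, knockout over control, of 1.34 in members and -1.27 in the rest. For glra4a, a glycine receptor subunit, the ratios were 1.01 in members and -2.56 in the rest. gria3a, an AMPA receptor subunit, had 2.31 in members and -1.04 in the rest, and kcnj3a, an inward-rectifier potassium channel, had 1.41 and -1.06. calb2a had 4.49 in members and -1.01 in the rest, with 104 UMIs in 2 knockout members, and was also named above for its high ratio in members. penkb ran the other way, at -1.14 in members and 2.21 in the rest, with its 25 knockout UMIs in 1 member.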

How the results depend on the processing

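Member shares followed the rule. Without a minimum of genes they were 1.21% in the knockout and 1.86% in the control library, with all 3 genes required 0.310% and 1.05%, and with barcodes thinned first 0.186% and 0.587%. With at least 2000 UMIs the control share was 1.91%. Counts past 2-fold between knockout and control members (either way, higher, lower) were 1014, 368 and 646 with members thinned, 728, 211 and 517 with free RNA subtracted, 1185, 412 and 773 at 20 UMIs per gene, 158, 54 and 104 at 100 UMIs, 3214, 1082 and 2132 with no minimum, and 1174, 501 and 673 at 1.5-fold. Without the cell with most UMIs, 71 were higher and 460 lower. The log2 ratio of H2B-mGL was 0.34 with a sum of at least 5, 0.62 without a minimum of genes, -0.21 with all 3 genes, 1.198 thinned, 0.32 without the cell with most, 0.43 with free RNA subtracted and 0.44 standardised over the dlx split. Genes 2-fold higher with dlx numbered 103 without a minimum of genes, 30 with all 3 genes and 16 thinned, and genes lower numbered 199 without a minimum of genes. The ratios of cart2 (-3.81), cckb (-2.25) and uts1 (-1.85) reversed without the cell with most. For cart2 and uts1 no knockout UMI was then left, so their sign was fixed beforehand. The cause of the other moves was not tested. No paired analysis was possible because each genotype had 1 library. Knockout members were 22 cells, so a gene seen in under 13.6% of them could be missed, and intervals leave out differences between cells and fish.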

Other observations

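The peptide genes counted here were concentrated in few members. With at least 10 UMIs in a cell taken as the mark, a limit chosen after the values were seen, 7 of 22 knockout members and 14 of 59 control members carried at least 1 of 38 peptide precursor genes. Of these, 4 knockout and 10 control members carried 1 peptide gene alone, and 3 and 4 carried more. None of the 38 was carried by more than 3 members of either library. The somatostatin-related gene cort was not among the 38. It was seen, at any count, in 3 knockout and 10 control members, with 98 and 248 UMIs. sst1.1, a somatostatin gene, was carried by 3 knockout members, 1 with dlx, and 2 control members, neither with dlx. The sst1.1 cell with dlx in the knockout library, with 64 UMIs, also held the 55 UMIs of npy. 1 knockout member without dlx held 708 UMIs of ccka, 802 of cckb, 47 of uts1 and 35 of crha, the corticotropin-releasing hormone gene. penkb, the other proenkephalin gene, was carried by 1 knockout member without dlx and 3 control members, all with dlx. tac1, a tachykinin gene, had 135 UMIs in 7 control members, all with dlx, and 1 UMI in knockout members. galn, the galanin gene, was carried by 1 control member with dlx, at 38 UMIs.

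Genes of dopamine synthesis and transport were seen in some members, with and without dlx. At least 1 of th, ddc, slc6a3 and slc18a2 was detected in 5 knockout members, 2 of them with dlx. It was detected in 16 control members, 15 of them with dlx. The shares of the rest were 4.86% and 4.71%. Of th, ddc, slc6a3 and slc18a2, at least 2 were detected in 1 of 22 knockout members and 5 of 59 control members, all with dlx, against 0.280% and 0.0744% of the rest. At least 3 were detected in 1 knockout and 2 control members. slc6a3, the dopamine transporter gene, had 1 UMI in knockout members and 12 UMIs in 4 control members, and ddc, the decarboxylase that makes dopamine, had 4 UMIs in 1 knockout and 26 UMIs in 6 control members. Members were deeper than the rest, and these shares were not thinned. Control members with dlx were also deeper than those without, with medians of 14813 and 7607 UMIs.

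nos1, the neuronal nitric oxide synthase gene, was seen in 6 of 22 knockout and 22 of 59 control members, at 44.1 and 135 CPM. crhbp, the gene for the binding protein of corticotropin-releasing hormone, was at 28.05 CPM from 2 knockout members and at 263 CPM from 11 control members, against 3.83 and 13.2 CPM in the rest. The control UMIs lay mostly in few cells, with 109 in 1 member and 39 and 29 in 2 others.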
